A study of Mus musculus with 8 samples.

Results

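The genes described here encode 10 proteins that bring fatty acids into cells or carry them inside cells: the fatty acid translocase Cd36, the transport proteins Slc27a2, Slc27a4 and Slc27a5, lipoprotein lipase (Lpl), the very low density lipoprotein receptor (Vldlr) and the binding proteins Fabp1, Fabp2, Fabp4 and Fabp5. They were chosen by name and role, with earlier results of these data known. Each was found by its symbol among the 55385 gene identifiers of the expression table. The liver transcriptome was measured by RNA-seq in 8 male mice aged 5 weeks that had been fasted for 16 h, 4 controls and 4 mice with a hepatocyte deletion of Usp39 (Usp39-HKO), with 1 library per mouse. Usp39 encodes a component of the spliceosome. The Usp39-HKO mice carried Usp39 fl/fl, with loxP sites around exon 2, and Cre driven by the albumin promoter, on a C57BL/6J background, so recombination was aimed at hepatocytes and not at the other cells of the liver. The controls were littermates labelled WT, and whether they carried the floxed allele or Cre is not given in the sources used here. Each mouse is numbered within its genotype, and the numbers do not pair mice.

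Fasting sends fatty acids from adipose tissue to the liver, where they cross the hepatocyte membrane with the help of Cd36 and the Slc27a family, are bound by Fabp proteins in the cytosol and are activated to acyl-CoA. Slc27a proteins are themselves acyl-CoA synthetases. Lpl, which is low in adult hepatocytes, releases fatty acids from circulating triacylglycerol, and Vldlr binds the lipoprotein particles that carry it.

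Of the 10 genes, Cd36 and Lpl were higher in Usp39-HKO liver, Slc27a2, Slc27a5 and Slc27a4 were lower, and the 4 Fabp genes and Vldlr did not pass the test. All 10 passed the filter on low values (FPKM, counts scaled to merged exon length and to the total of the mouse, of at least 0.5 in at least 4 mice), and a call is an adjusted p under 0.05 in edgeR's quasi-likelihood test over the 14340 genes that passed it. Over those genes, 10.9% were called higher and 11.6% lower, 22.5% in all, against 5 of the 10 genes here. The median log2 fold change was -0.15 over the 10 genes and -0.0015 over all genes tested, or 0.09 and 0.24 without scaling factors. FPKM did not overlap between the genotypes for 4 of the 10, against 28.7% of all genes tested. Cd36 and Lpl were the 2 on the higher side, where 23.9% of all genes stood, and Slc27a2 and Slc27a5 were the 2 on the lower side, where 4.81% stood.

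**Figure D1:**
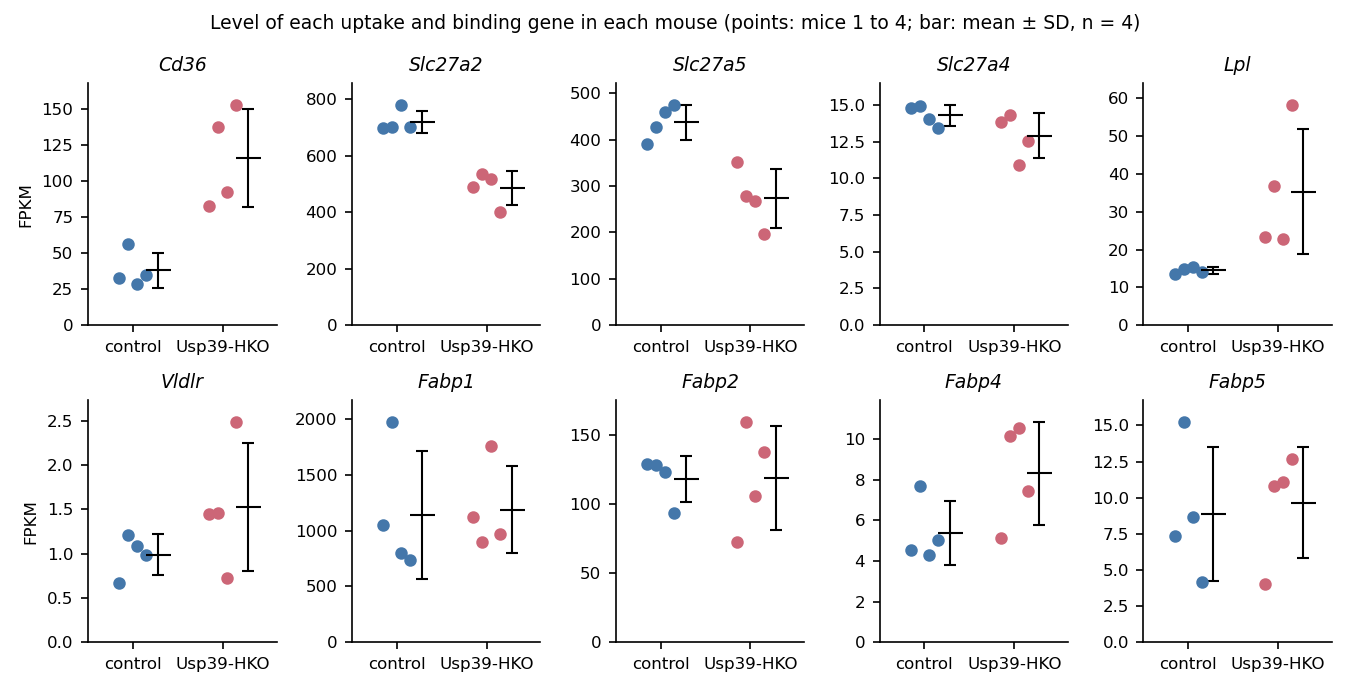
FPKM of each of the 10 genes in each mouse, with 4 control and 4 Usp39-HKO mice per panel. Points are mice 1 to 4 of a genotype from left to right, and the bar to their right gives the mean ± SD. Cd36 and Lpl are higher in every Usp39-HKO mouse than in any control, Slc27a2 and Slc27a5 are lower in every Usp39-HKO mouse, and the other 6 genes overlap.

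Counts on genes summed to between 8589636 and 10418450 per mouse. The libraries separated by genotype along the first principal component (48.5% of the variance), and Usp39-HKO mouse 4 stood farthest out, at 59.3 against 29.8 to 32.2 in the other Usp39-HKO mice and -44.5 to -25.4 in controls. TMM scaling factors ran from 0.911 to 0.94 in controls and from 1.01 to 1.19 with the deletion, so ratios of FPKM run higher than the fold changes of the fit. Without these factors the median gene moved by 0.24 on the log2 scale, and 83.5% of the calls were higher in Usp39-HKO mice, against 48.4% with them. limma on FPKM, which carries no such factor, lost every call named here as lost without scaling factors. Whole-gene Usp39 was 8.76 to 10.4 FPKM in controls, against 8.07 to 8.70 in Usp39-HKO mice (log2 fold change -0.41 ± 0.11 SE, adjusted p = 0.0212). That call was lost without control mouse 4 or Usp39-HKO mouse 4 (adjusted p of 0.0547 to 0.0615) and without scaling factors, and a count over the whole gene does not resolve the floxed exon. Hepatocyte markers, led by Alb, ranged from 16102 to 17830 summed FPKM in controls and from 14187 to 19498 with the deletion, a sum in which Alb weighs most. In the fit all 8 had a log2 fold change below 0, with a median of -0.41, and 2 were called lower and none higher. Without scaling factors 6 of the 8 were below 0 and the median was -0.18.

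Sequence ahead of the transcription start was given by RefSeq (GRCm38.p6) for 6 of the 10 genes, in 7 windows of which the 250 bases before the start were searched. Fabp4, Fabp5, Slc27a5 and Lpl were not searched. PPAR receptors, which respond to fatty acids, bind with their partner RXR to a direct repeat of AGGTCA with 1 base between the copies (AGGTCANAGGTCA). Both strands were searched for AGGTCA and for the repeat, whose copies are themselves AGGTCA, so the matches can overlap. Fabp1 held the repeat with 1 letter different, 67 bases before the start, which 0.484% of 32851 windows held with at most that difference. Cd36 held it with 2 letters different, 63 bases before the start, against 3.24% of windows with at most 2, and AGGTCA 228 bases before the start, against 14% of windows. The exact repeat, found in 0.0335% of windows, was in none of the 7. AGGTCA was in the windows of Cd36, Fabp1 and Slc27a2, and not in those of Slc27a4, Fabp2 and Vldlr. All 250 bases searched for Slc27a2 lay within annotated exons, so its window is not shown. Fabp1 held a further AGGTCA 9 bases before the start, in the part of its window that lies in an exon. A match is a description of the letters and not of a bound site. The windows of the called gene with the largest rise, of the binding protein with the closest match and of a transport protein that fell are shown, each only where it lies outside the annotated exons, 5′ to 3′ on the strand of the gene, with matches to AGGTCA and to the repeat in capitals.
Cd36: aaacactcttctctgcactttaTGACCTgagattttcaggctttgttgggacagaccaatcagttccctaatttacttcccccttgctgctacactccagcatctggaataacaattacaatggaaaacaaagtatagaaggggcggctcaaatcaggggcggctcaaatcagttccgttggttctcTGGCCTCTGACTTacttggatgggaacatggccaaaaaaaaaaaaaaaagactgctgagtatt
Fabp1: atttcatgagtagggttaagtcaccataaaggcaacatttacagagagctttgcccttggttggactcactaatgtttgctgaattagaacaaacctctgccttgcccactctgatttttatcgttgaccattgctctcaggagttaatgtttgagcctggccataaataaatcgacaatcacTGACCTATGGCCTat
Slc27a4: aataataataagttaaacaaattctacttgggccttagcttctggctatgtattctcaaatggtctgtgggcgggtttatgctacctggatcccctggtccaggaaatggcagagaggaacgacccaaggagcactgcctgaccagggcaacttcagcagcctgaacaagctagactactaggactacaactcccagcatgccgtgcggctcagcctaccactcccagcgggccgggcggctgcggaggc
These lie at chr5:17835897-17836146 on the minus strand, chr6:71199629-71199826 on the plus strand and chr2:29802384-29802633 on the plus strand. The Cd36 window lies within the annotated span of the gene, ahead of a start inside it, and none of its bases are in an exon.

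Cd36 is a membrane scavenger receptor that takes up long-chain fatty acids and oxidised lipoproteins, in hepatocytes as well as in macrophages and endothelium. It lies on the minus strand of chr5:17781690-17888801 (GRCm38). In controls it was at 32.6, 56.1, 28.6 and 34.6 FPKM, and in Usp39-HKO mice at 82.3, 137, 92.1 and 153. The control that was highest, mouse 2, was still below the lowest Usp39-HKO mouse. The mean went from 38.0 ± 12.3 FPKM (SD, n = 4) to 116 ± 34.1, and the log2 fold change of the fit was 1.36 ± 0.22 SE (2.57-fold, edgeR adjusted p = 0.00236). The exact permutation test on FPKM gave p = 0.0286, two-sided, the smallest that 70 assignments of the mice allow. Over 15 other fits, which changed the scaling, the tool or the filter on low values or left out a mouse, the log2 fold change was 1.25 to 1.61, and the call was made in each.

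Slc27a2, Slc27a5 and Slc27a4 (FATP2, FATP5 and FATP4) are membrane proteins that couple the uptake of long-chain fatty acids to their activation. Slc27a2 also activates very long-chain fatty acids, and Slc27a5 also activates bile acids in the liver. All 3 fell, and the other measured members of their family are given further on. The levels of Slc27a2 (chr2:126552407-126588243, plus strand) were 698, 702, 780 and 703 FPKM in controls and 490, 534, 519 and 402 in Usp39-HKO mice. Every Usp39-HKO mouse was below every control, and Usp39-HKO mouse 4 was lowest. Its mean went from 721 ± 39.4 to 486 ± 59.1 FPKM (SD, n = 4), with a log2 fold change of -0.79 ± 0.15 SE (edgeR adjusted p = 0.00452). Over the other fits the log2 fold change was -0.84 to -0.57, and the call was made in each. A gene on the opposite strand, Gm26697, covers 11.2% of the exon bases of Slc27a2, and since no strand setting of the counting is given, reads there cannot be assigned to either.

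Slc27a5 lies on the minus strand of chr7:12988346-12998192. It was at 390, 427, 459 and 474.1 FPKM in controls and at 353, 278, 267 and 196 in Usp39-HKO mice. The genotypes did not overlap, and mouse 1 of the Usp39-HKO group was nearest to the controls and mouse 4 farthest from them. Its mean went from 438 ± 37.3 to 273 ± 64.2 FPKM (SD, n = 4), and its log2 fold change was -0.89 ± 0.19 SE (edgeR adjusted p = 0.00823). This was the largest fall of the 10 genes in the fit, and over the other fits it was -1.06 to -0.68, with the call made in each. Exact permutation tests on the FPKM of Slc27a2 and of Slc27a5 each gave p = 0.0286, the smallest possible.

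Slc27a4 (chr2:29802634-29817522, plus strand) was far lower in level than the other transport proteins. Its FPKM was 14.8, 14.9, 14.0 and 13.4 in controls and 13.9, 14.3, 10.9 and 12.5 in Usp39-HKO mice. Two-sided exact permutation of these overlapping values gave p = 0.143, against p = 0.0286 for TMM-scaled CPM, on which the genotypes did not overlap. The fit gave a log2 fold change of -0.38 ± 0.12 SE (edgeR adjusted p = 0.0366). The call was lost without scaling factors (adjusted p = 0.345), with limma on FPKM (0.305 to 0.306), with a filter at a mean of 5 FPKM (0.0731), under the cutoff of the study (p under 0.05 before adjustment and a change of over 0.5 on the log2 scale, which called 4 of the 10 genes and 21.7% of all genes tested), and when any of control mice 1, 2, 3 and 4 or Usp39-HKO mice 3 and 4 was left out (0.0574 to 0.104). Its direction was the same in all of these fits.

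Within the transport proteins the composition moved little while the total fell. The FPKM of Slc27a2, Slc27a5 and Slc27a4 summed to 1172 ± 64.1 in controls (1103 to 1252) and to 772 ± 111 in Usp39-HKO mice (610 to 856). Slc27a2 made up 61.5% ± 1.82 of that sum in controls and 63.2% ± 4.02 in Usp39-HKO mice (SD, n = 4), and Slc27a5 made up 37.3% ± 1.89 and 35.1% ± 4.10. Both ranges overlapped. The share of Slc27a4 ranged from 1.12% to 1.34% in controls and, without overlap, from 1.37% to 2.05% with the deletion. The log2 fold changes of Slc27a2, Slc27a5 and Slc27a4 were -0.79, -0.89 and -0.38, and the median of the 8 hepatocyte markers was -0.41. The part of hepatocyte RNA as a whole in the falls of the transport proteins was not tested. The ratio of Slc27a2 to Cd36 restates the fall of the first and the rise of the second. Each control had 12.5 to 27.2 times as much Slc27a2 as Cd36 by FPKM, and each Usp39-HKO mouse 2.63 to 5.95 times as much.

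**Figure D2:**
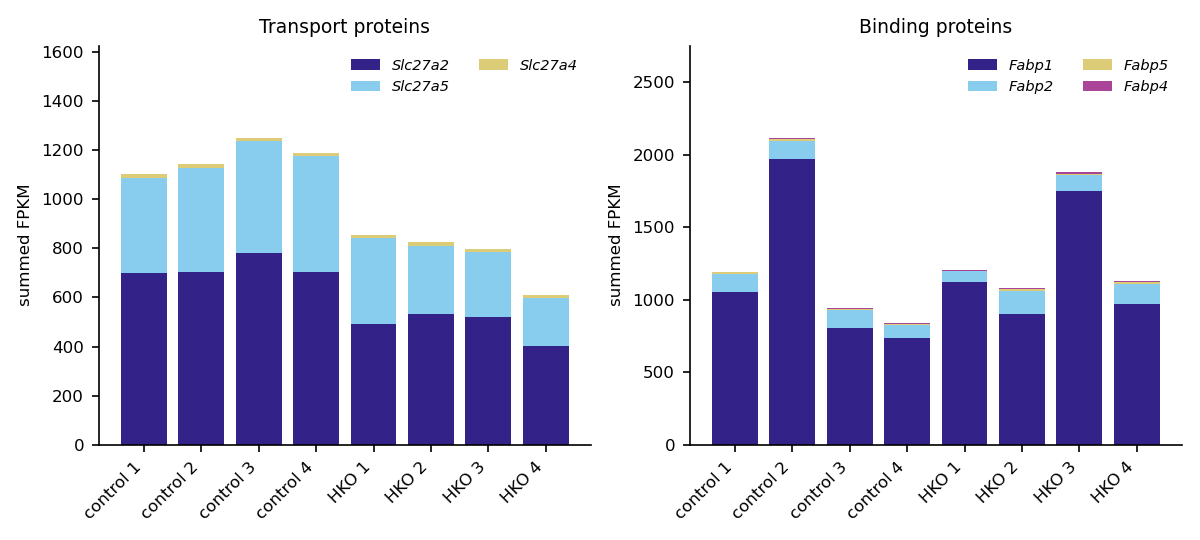
Summed FPKM of the transport proteins (left) and of the binding proteins (right) in each mouse, with a bar per mouse split by gene. The transport sum lies between 610 and 856 in Usp39-HKO mice, below the 1103 to 1252 of controls, while the binding sum, mostly Fabp1, is highest in control mouse 2 and Usp39-HKO mouse 3.

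Lpl hydrolyses the triacylglycerol of chylomicrons and very low density lipoproteins and is made mainly by adipocytes, muscle and macrophages. It lies on the plus strand of chr8:68880491-68907448. Controls lay close together at 13.5, 14.8, 15.4 and 14.2 FPKM, and Usp39-HKO mice were at 23.4, 36.7, 22.9 and 58.2. Mouse 4 was the highest and mice 1 and 3 the lowest of the Usp39-HKO group, and none overlapped the controls. The mean went from 14.5 ± 0.821 to 35.3 ± 16.6 FPKM (SD, n = 4), with a log2 fold change of 1.02 ± 0.23 SE (2.03-fold, edgeR adjusted p = 0.00894) and an exact permutation p = 0.0286, the smallest possible. Without Usp39-HKO mouse 4 the log2 fold change was 0.74 (adjusted p = 0.0119), and over all 15 other fits it was 0.74 to 1.29, with the call made in each. Of the longest coding transcript of Lpl, 3.82% also occurs in Gm14914 or Uty, so reads there are uncertain. Gm14914 held no counts, and Uty held 165 to 301 counts per mouse, up to 20.5% of those of Lpl.

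Because Cd36 and Lpl are also expressed by cells other than hepatocytes, the marker lists of those cells were read beside them. Their counts of calls stand against 10.9% higher and 11.6% lower over all genes tested. A change in the number of cells of a type and a change in RNA per cell cannot be told apart in bulk liver. Kupffer cell and macrophage markers, led by Cd5l, summed to 323, 390, 302 and 330 FPKM in controls and to 551, 569, 581 and 830 in Usp39-HKO mice, and 7 of the 9 tested were called higher and none lower. Usp39-HKO mouse 4 was the highest for this sum, as for Lpl, for Cd36 and for the stellate cell and cholangiocyte sums given next. It also stood farthest out on the first principal component of all genes tested. Stellate cell markers, led by Rgs5, had sums of 36.0 to 46.4 FPKM in controls and of 53.7 to 128 with the deletion, with 6 of 8 higher. Cholangiocyte markers, led by Epcam, had sums of 3.20 to 3.72 FPKM in controls and of 4.45 to 22.7 with the deletion, with all 3 tested called higher. The part of these cells in the changes of Cd36 and Lpl was not tested.

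The other marker lists differed less. Endothelial markers, led by Clec4g, had sums of 105 to 117 FPKM in controls and of 112 to 118 with the deletion, with 2 of 8 lower and none higher. For adipocytes, a main source of Lpl and Fabp4 elsewhere, most defining markers were at or near 0: Lep and Retn were at 0 in every mouse, Adipoq was at 0.169 FPKM or less, and the sum of the list (3.45 to 4.39 FPKM in controls, 4.29 to 4.68 with the deletion) was mostly Lipe, which was not called. Cidea, a lipid droplet protein on the same list, was at 0 to 0.0977 FPKM in controls and, without overlap, at 0.461 to 1.23 with the deletion, on 13 counts or fewer per mouse and under the filter on low values. Skeletal muscle markers summed to 1.23 FPKM or less in every mouse, with Mylpf the most abundant on average and Ckm, Myh4 and Mb at 0 in each. Acta1 was at 0 in every control and in Usp39-HKO mouse 1, and at 0.319, 0.478 and 0.275 FPKM in the other 3, on 7 counts or fewer. Among markers of intestinal epithelium, which is the main site of Fabp2, Sis was at 0 and the sum (366 to 609 and 374 to 684 FPKM) was nearly all Apoa4, which the liver also makes. Of the 2 intestinal markers tested, 1 was called lower.

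**Figure D3:**
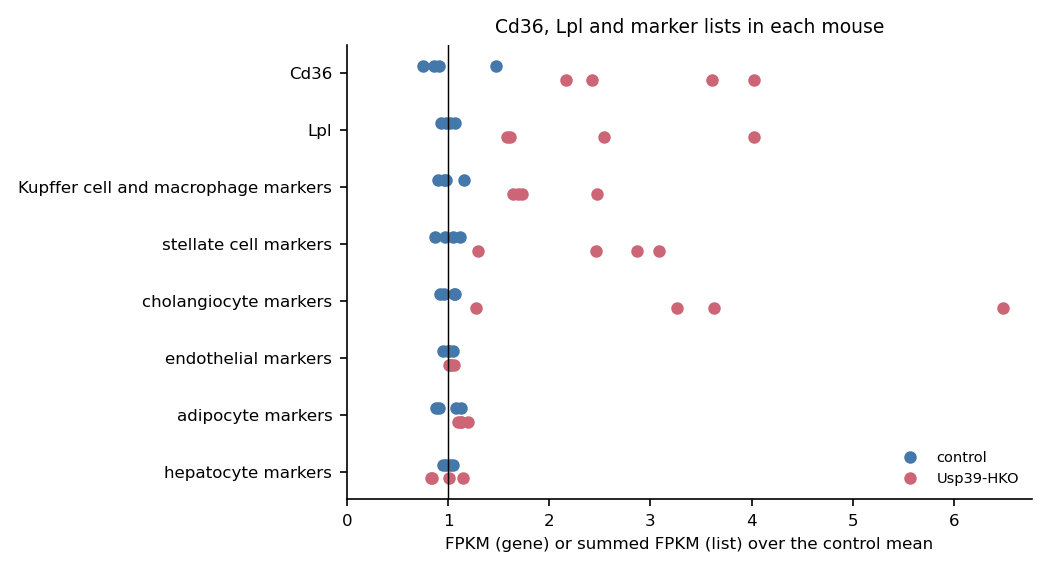
Level in each mouse over the control mean, for the FPKM of Cd36 and Lpl and for the summed FPKM of 6 marker lists, with 4 control and 4 Usp39-HKO mice per line. The sums of Kupffer cell and macrophage, stellate cell and cholangiocyte markers do not overlap between the genotypes, as for Cd36 and Lpl, whereas the summed FPKM of endothelial and hepatocyte markers, which is not scaled by TMM factors, overlaps and lies near 1.

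Vldlr, which is scarce in normal liver, was the lowest of the 10 genes in level, at chr19:27216484-27254231 on the plus strand. It was at 0.671, 1.21, 1.09 and 0.991 FPKM in controls and at 1.45, 1.46, 0.729 and 2.48 in Usp39-HKO mice, on 62 to 237 counts per mouse. In 3 of the 4 Usp39-HKO mice it was above every control, and mouse 3 was within their range. The log2 fold change was 0.37 ± 0.29 SE (edgeR adjusted p = 0.387), with an exact permutation p = 0.229 on FPKM. It was 0.11 without Usp39-HKO mouse 4, 0.60 without Usp39-HKO mouse 3 and 0.23 without control mouse 1, and no call was made in any fit.

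The binding proteins are small cytosolic proteins that hold a fatty acid in an inner cavity. Fabp1, the liver form (chr6:71199827-71205023, plus strand), had the highest FPKM of the 10 genes in each of the 8 mice. It was at 1051, 1968, 803 and 734 FPKM in controls and at 1122, 901, 1752 and 970 in Usp39-HKO mice. The spread within each genotype was far larger than the difference between their means: control mouse 2 and Usp39-HKO mouse 3 were high and the other 6 mice lay between 734 and 1122. The fit gave a log2 fold change of -0.17 ± 0.32 SE (edgeR adjusted p = 0.748), and the exact permutation test on FPKM gave p = 0.8. The sign was not fixed: it was 0.06 without scaling factors and 0.23 without control mouse 2.

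Fabp2, the intestinal form (chr3:122895072-122899506, plus strand), was at 129, 128, 124 and 94.1 FPKM in controls and at 72.8, 160, 106 and 138 in Usp39-HKO mice. Means were 119 ± 16.7 and 119 ± 37.8 FPKM (SD, n = 4), and the Usp39-HKO mice lay on both sides of the controls. Its log2 fold change was -0.24 ± 0.19 SE (edgeR adjusted p = 0.399). It was 0.01 without scaling factors, -0.07 without Usp39-HKO mouse 1 and -0.42 without Usp39-HKO mouse 2.

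Fabp4 and Fabp5, the adipocyte and epidermal forms, are neighbours on chromosome 3 and are also made by macrophages and endothelium. Fabp4 (chr3:10204088-10208576, minus strand) was at 4.54, 7.69, 4.28 and 5.02 FPKM in controls and at 5.16, 10.1, 10.5 and 7.43 in Usp39-HKO mice. Of these, 2 Usp39-HKO mice were above every control, and the log2 fold change was 0.39 ± 0.23 SE (edgeR adjusted p = 0.263), or 0.61 without control mouse 2 and 0.24 without Usp39-HKO mouse 3. Fabp5 (chr3:10012548-10016607, plus strand) was at 7.39, 15.2, 8.68 and 4.17 FPKM in controls and at 4.01, 10.8, 11.1 and 12.7 in Usp39-HKO mice. Each genotype had a mouse near 4 FPKM, and the log2 fold change was -0.13 ± 0.37 SE (edgeR adjusted p = 0.835), positive without scaling factors (0.13), without control mouse 2 (0.26) and without Usp39-HKO mouse 1 (0.13). Levels of both are understated per length: their merged exon lengths of 4489 and 3567 bases exceed their longest coding transcripts of 896 and 987 bases. The same holds for Lpl, with 10478 bases against 4115. It holds to a smaller degree for the other genes except Fabp1 and Fabp2, whose lengths are equal. Reads of Fabp5 are also uncertain, since 41.3% of its longest coding transcript is shared with Gm14328 and Gm6166. These held 0 to 3 counts per mouse.

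Of the summed FPKM of the 4 binding proteins, Fabp1 made up 88.5% ± 3.11 in controls and 88.9% ± 5.05 in Usp39-HKO mice (SD, n = 4), Fabp2 10.3% ± 3.02 and 9.67% ± 4.53, and each of the others 1.12% or less in every mouse. The sum was 837 to 2119 FPKM in controls, against 1081 to 1880 in Usp39-HKO mice, so the fall seen in the sum of transport proteins had no counterpart in the binding proteins beyond the spread between mice.

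**Figure D4:**
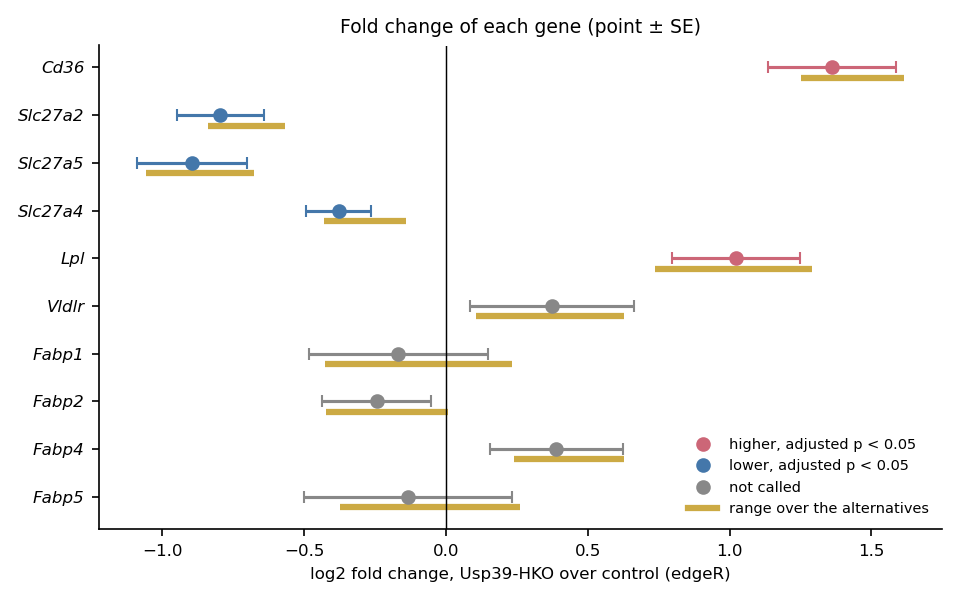
Fold change on the log2 scale, Usp39-HKO against control, for each of the 10 genes (edgeR, point ± SE), with a bar under each for the range over the other fits. The bars of Cd36, Lpl, Slc27a2, Slc27a5 and Slc27a4 stay on 1 side of 0, as do those of Fabp4 and Vldlr, which were not called, and the bars of Fabp1, Fabp2 and Fabp5 cross it.

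Fabp1 has an exon length of 553 bases, the shortest of the 10 genes, and its variation between mice of a genotype was read beside that of other genes with short transcripts, a comparison chosen after its values were seen. Centred over the 8 mice, log2 TMM-scaled CPM was 0.07, 0.96, -0.32 and -0.49 for Fabp1 in controls and 0.02, -0.40, 0.59 and -0.42 in Usp39-HKO mice. The median of the 339 tested genes whose longest coding transcript has at most 800 bases was -0.12, 0.14, -0.07 and -0.03 in controls and 0.12, -0.12, 0.20 and -0.04 in Usp39-HKO mice. The highest control was mouse 2 and the highest Usp39-HKO mouse was mouse 3 on both measures, and the medians spanned a smaller range than Fabp1 did. The lowest mice differed: control mouse 1 and Usp39-HKO mouse 2 for the short genes, and mouse 4 of each genotype for Fabp1. Of the 10 tested genes whose profile over the 8 mice was nearest to that of Fabp1, 9 had a coding transcript length, with a median of 815 bases against 3052 for all tested genes. With library sizes set by the short genes alone, Fabp1 had a log2 fold change of -0.22 ± 0.26 SE (edgeR adjusted p = 0.615), and Fabp2, Fabp4 and Fabp5 also stayed without a call (0.461, 0.296 and 0.831). The part of transcript length in the spread of Fabp1 was not tested.

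**Figure D5:**
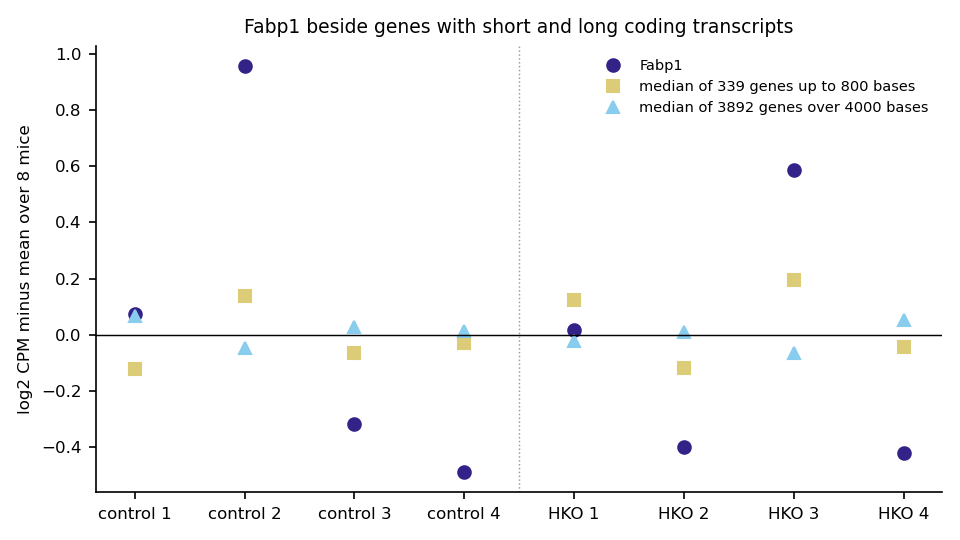
Log2 TMM-scaled CPM minus the mean over the 8 mice, for Fabp1 and for the medians of 339 genes with a longest coding transcript of at most 800 bases and of 3892 genes over 4000 bases, in each mouse. Fabp1 and the short genes are both high in control mouse 2 and Usp39-HKO mouse 3, where the median of the long genes is below 0.

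The other genes of these families held a further transport protein that fell. Of 11 listed, 7 were tested, with none higher and 2 lower and a median log2 fold change of -0.11 (0.13 without scaling factors). For this list and those that follow, the shares of all genes tested were 10.9% higher and 11.6% lower. Slc27a1 (FATP1), the insulin-responsive transporter of muscle and fat, went from a mean of 8.76 ± 0.964 FPKM (SD, n = 4) in controls to 5.28 ± 0.560 in Usp39-HKO mice without overlap, and its log2 fold change was -0.97 ± 0.11 SE (edgeR adjusted p = 0.000591). Scp2, a peroxisomal sterol and fatty acyl carrier, was the most abundant of the list and fell by 0.70 on the log2 scale (edgeR adjusted p = 0.0215). That call was lost with limma or when control mouse 1 or 3 was left out (0.0581 to 0.0612 for the mice). Its log2 fold change was -0.82 to -0.47 over the other fits. With Slc27a1, each of the 4 tested members of the Slc27a family was called lower in Usp39-HKO liver, against 11.6% of all genes tested. The call of Slc27a4 was lost in 10 of 15 other fits. Slc27a3 and Slc27a6 were under the filter on low values and had higher means with the deletion. These were 0.34 and 0.0946 FPKM in controls and 0.694 and 0.312 in Usp39-HKO mice. Slc27a6 was at 0.0812 to 0.116 FPKM in controls and, without overlap, at 0.207 to 0.552 with the deletion, on 2 to 13 counts. Slc27a3 was above every control in 3 of the 4 Usp39-HKO mice. Fabp6 was at 0 in every mouse.

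Long-chain acyl-CoA synthetases trap fatty acids as acyl-CoA and thioesterases release them again. Of 9 tested, 2 were higher and 3 lower, with a median of -0.27 (-0.03 without scaling factors). Acot2, a mitochondrial thioesterase, went from a mean of 20.3 FPKM in controls to 89.9 in Usp39-HKO mice without overlap (3.74-fold in the fit, edgeR adjusted p = 0.00348), and Acsl4, which prefers arachidonate, rose by 0.77 ± 0.13 SE (adjusted p = 0.00267). Acot2 has a close paralog, Acot1, with which reads can be shared. Acsl1, the main hepatic synthetase and the most abundant of the list, fell by 0.81 ± 0.18 SE (adjusted p = 0.00825). The medium-chain enzymes Acsm1 and Acsm3 fell by 0.76 (adjusted p = 0.00435) and 0.61 (0.0174), and the call of Acsm3 was lost without scaling factors or without control mouse 3 or 4 (0.0557 to 0.0598 for the mice).

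Lpl works on the capillary wall with partners that fold, anchor, activate and inhibit it. The list of these genes also held other lipases and the receptor Lrp1. None of its 11 tested genes was higher, against 3 lower with Lrp1 among them, and the median log2 fold change was -0.28 (-0.05 without scaling factors). Gpihbp1, which anchors Lpl on endothelium, had a mean of 9.82 FPKM in controls and 12.3 in Usp39-HKO mice (log2 fold change 0.10 ± 0.16 SE, edgeR adjusted p = 0.699, and -0.03 without Usp39-HKO mouse 1). Angptl4, a fasting-induced inhibitor of Lpl, was at 79.4 to 108 and 98.8 to 134 FPKM (0.08 ± 0.15 SE, adjusted p = 0.739). Sel1l, needed for Lpl to leave the endoplasmic reticulum, fell by 0.54 ± 0.10 SE (adjusted p = 0.00346). The maturation factor Lmf1 fell by 0.47 (adjusted p = 0.0224), a call lost without scaling factors and without control mouse 1, 3 or 4 or Usp39-HKO mouse 4 (0.0537 to 0.0662 for the mice). Lrp1, an endocytic receptor for remnant particles, fell by 0.39 ± 0.13 SE (adjusted p = 0.0472), a call lost without scaling factors, with a filter at a mean of 5 FPKM (0.0790), with no filter (0.0679) and on leaving out any mouse other than Usp39-HKO mouse 1 (0.0650 to 0.133). Apoc3, an inhibitor, was the most abundant of the list.

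Of 7 lipoprotein receptors and their regulators tested, 1 was higher and none lower, with a median log2 fold change of -0.04 (0.20 without scaling factors). Of all genes tested, 10.9% were called higher and 11.6% lower. Msr1, a scavenger receptor of macrophages, rose by 0.49 ± 0.14 SE (edgeR adjusted p = 0.0281), a call lost without control mouse 3 or 4 or Usp39-HKO mouse 2 or 4 (0.0536 to 0.0886). Its direction was that of the macrophage markers above. Sdc1, a heparan sulfate proteoglycan, was the most abundant.

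Nuclear receptors and hepatocyte regulators set the transcription of many of these genes. Of 14 tested, none was higher and 4 were lower, with a median of -0.26 (-0.03 without scaling factors). Nr1i3 (CAR), a xenobiotic receptor, went from 9.40 to 13.2 FPKM in controls to 4.63 to 6.48 in Usp39-HKO mice (log2 fold change -1.31 ± 0.16 SE, edgeR adjusted p = 0.000758). Ppara, the receptor that drives fatty acid oxidation in fasting, fell by 0.83 ± 0.13 SE (adjusted p = 0.00209), without overlap. Nr1h4 (FXR), the bile acid receptor, fell by 0.50 ± 0.15 SE (adjusted p = 0.0309), a call lost without scaling factors and on leaving out any mouse other than Usp39-HKO mouse 1 (0.0511 to 0.0855). Pparg, the adipocyte PPAR, was at 4.24 to 6.89 FPKM in controls, against 6.35 to 9.04 in Usp39-HKO mice, with a log2 fold change of 0.43 ± 0.17 SE (adjusted p = 0.0924) that was called without scaling factors, with limma and without control mouse 4. The fourth that fell was Nr1h3. Hnf4a was the most abundant.

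Outside these lists, the genes whose profiles over the 8 mice were nearest to those of Cd36 and Slc27a5 were named by the root mean square difference of centred log2 TMM-scaled CPM over 14330 genes. For Cd36 these were Cenpa (0.17), a centromeric histone, Mmp23 (0.18) and the kinase Map4k4 (0.18). For Slc27a5 they were nearer in distance: Baat (0.0807), the enzyme that conjugates bile acids with taurine or glycine, Serpina1d (0.0883), a serum protease inhibitor with close paralogs, and Haao (0.0968), an enzyme of tryptophan breakdown. All 6 were called in the same direction as the gene they were matched to, which the measure of likeness favours.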

How the data were processed

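The authors trimmed reads (Trim Galore 0.6.1, per the submitters' processing notes), aligned them to mm10 with HISAT2 and deposited raw counts per gene from featureCounts. The annotation release and the strand setting are not given in the sources used here. The authors also deposited FPKM, which recomputed from counts, lengths and totals within 1% for 100% of values. The columns of the authors' own DESeq2 comparison, deposited as a mean signal, a log2 fold change, 2 scores (its error and test statistic) and p-values, were not used.

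The table had 55699 entries for 55385 identifiers. The 314 repeats held the same values and were read once. Genes with FPKM of at least 0.5 in at least 4 mice (14340) were tested with edgeR 4.0.16 (quasi-likelihood, TMM, Benjamini-Hochberg over all tested genes), genotype being the only term, after tests on simulated data. Single levels were compared with two-sided exact permutation tests over 70 assignments. Alternatives were DESeq2 1.42.0, limma 3.58.1 on log2(FPKM + 1) and log2(FPKM + 0.1), median-ratio or no scaling factors, other filters, the cutoff of the study and each mouse left out. A floor of 3 counts was 0.288 to 0.349 CPM per mouse, counting error only. Chi-square over degrees of freedom was 6.40 to 32.9 between libraries of a genotype, so none was a repeat of another.

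The 10 genes and the lists were chosen with earlier results of these data known, and 3 listed genes are not reported here. Named genes were the 10, Usp39, Gpihbp1, Angptl4, Ppara, Pparg, up to 3 called genes per list and direction by size of change, the most abundant marker and markers at 0, and the 3 genes nearest in profile to the called genes with the largest rise and fall. The profile of Fabp1, the fourth called gene of a list, the most abundant and zero genes of the other lists, Adipoq, Cidea and Acta1 were added after their values were seen. Coordinates are from GENCODE vM21 (GRCm38), whose merged exon lengths equal the deposited lengths of the 10 genes. Shared sequence is the part of the longest coding transcript matched by BLAST+ (at least 150 bases at 97% identity).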

Additional observations from a re-analysis of the deposited data

Results flagged for a closer look

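In 3 of 68 groups of 4 mice, examined for 34 named genes, 1 mouse lay apart from the other 3 by Dixon's criterion, which chance meets in about 1 in 20 groups. Fabp2 was at 94.1 FPKM in control mouse 4, against 124 to 129 in the other controls. Slc27a2 was at 780 FPKM in control mouse 3, against 698 to 703 in the others. Scp2 was at 809.0 FPKM in control mouse 4, against 911 to 924 in the others.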

How the results depend on the processing

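The calls of Cd36, Lpl, Slc27a2 and Slc27a5 were made in every alternative run. Members called higher were 2 in each, and members called lower 2 or 3, leaving out a mouse included. Over all genes, 1561 were called higher and 1664 lower. Without scaling factors the counts were 3525 and 696, with limma on log2(FPKM + 1) 3031 and 637, with limma on log2(FPKM + 0.1) 3061 and 626, and with a mean FPKM of at least 5 they were 750 and 845 of the 6672 genes tested. Leaving out 1 mouse gave 982 to 1847 higher and 949 to 1666 lower. It moved both counts by over 1.5 times for control mouse 3 (982 and 949), control mouse 4 (1020 and 1023) and Usp39-HKO mouse 4 (1031 and 1063). Fewer genes were tested under that filter and fewer mice in those fits. The fit without scaling factors changed only those factors, and limma on FPKM also carried none. The cause of any other difference was not tested.

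Signs that turned belonged to genes without a call. Without scaling factors the log2 fold changes were 0.061 for Fabp1, 0.0074 for Fabp2 and 0.13 for Fabp5. With limma they were 0.12 and 0.12 for Fabp1 and 0.13 and 0.14 for Fabp5 (pseudocounts 1 and 0.1). Without control mouse 2 Fabp1 was at 0.23 and Fabp5 at 0.26, and without Usp39-HKO mouse 1 Fabp5 was at 0.13 and Gpihbp1 at -0.028. With each mouse left out, Fabp1 ranged from -0.43 to 0.23, Fabp5 from -0.38 to 0.26 and Gpihbp1 from -0.028 to 0.23. The log2 ratio of group means in TMM-scaled CPM was -0.17 for Fabp1, -0.25 for Fabp2 and -0.14 for Fabp5, against 0.059, 0.0044 and 0.12 in FPKM. Vldlr had no value under the filter at a mean of 5 FPKM. Scaling by short genes was chosen after seeing the data.

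No paired analysis was possible because the labels carry no replicate numbers. With 4 mice per genotype, a change within the spread of Fabp1 or Fabp5 was not detectable, and no batch is given.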
